A study of Homo sapiens with 6 samples.

Results

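Kinesins are motor proteins that walk along microtubules, and their transcripts were compared between activated and dormant A549 cells, a human lung adenocarcinoma cell line. The family was taken as every row of the deposited count table whose gene symbol starts with KIF or KIFC followed by a digit, which gave 42 of 19470 symbols. By their textbook roles 14 of the members were grouped as mitotic, 15 as transport and 13 as other kinesins. The activated group had 3 libraries of wild-type A549 cells treated with medium conditioned by osteoclasts, the cells that resorb bone, and the dormant group had 3 libraries of wild-type A549 cells in which dormancy had been induced. The stated aim of the series was to find genes that differ as these cells leave dormancy. The sources used here do not say how dormancy was induced, what the tag SF on the dormant titles stands for, or whether the base medium was the same in both groups, so a difference of state and a difference of medium cannot be told apart. Each group is a state of this line, with no other line beside it.

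Kinesins use the energy of ATP to move along microtubules, most of them towards the growing plus end and the KIFC proteins towards the minus end. Mitotic kinesins push spindle poles apart, move or hold chromosomes, shorten microtubules and build the midzone at which a dividing cell is cleaved, and many of their genes are transcribed mainly late in the cell cycle. Transport kinesins carry vesicles, mitochondria, endosomes and ciliary cargo in cells that divide and in cells that do not, and several of them are best known from neurons.

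Library totals lay between 34478795 and 36397989 counts in the activated group and between 34128471 and 36667725 in the dormant group. Kinesins took 0.195% to 0.204% of the counts in activated libraries and 0.183% to 0.186% in dormant libraries. Across genes, Pearson's r of log2 CPM was 0.994 to 0.995 among activated libraries, 0.995 to 0.996 among dormant libraries and 0.925 to 0.928 between groups. The counts of replicate libraries were further apart than sampling noise alone gives: chi-square over its degrees of freedom was 7.39 to 22.5 for activated and 4.87 to 10.2 for dormant pairs. Nothing says that replicates are separate cultures, so p-values measure the spread of these libraries alone and that spread may be technical. The comparison was broad: 9830 of 13336 genes tested (73.7%) passed an adjusted p of 0.05, with 36.5% higher and 37.2% lower in activated cells and a median log2 fold change of -0.02. On unfiltered log2(FPKM + 1) values the split was 3904 higher and 5998 lower. Of the 7 epithelial markers KRT8, KRT18, CDH1 and ALDH1A1 were higher, EPCAM was lower, and KRT19 (log2 -0.14) and AKR1C1 (log2 -0.28) did not pass. EPCAM averaged 0.611 ± 0.185 CPM in activated and 1.28 ± 0.513 CPM in dormant libraries. The summed level of the list was 13690 to 14580 CPM in activated against 5145 to 5378 CPM in dormant libraries, and its largest member in activated libraries was ALDH1A1, at 7699 ± 132.0 CPM in activated and 1570.0 ± 16.1 CPM in dormant libraries (SD, n = 3 each). The part of these markers in the kinesin values was not tested.

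Of the 42 kinesins, 39 had enough counts to be tested. In activated cells 18 of the 39 were higher and 16 were lower, and 5 did not pass, against 36.5% and 37.2% of all genes tested. The groups did not overlap in CPM for 33 of the 39, against 76.5% of all genes tested. The median log2 fold change of the 39 was 0.10. By role, the 13 mitotic kinesins tested were all higher, with a median log2 fold change of 1.37, while among the 15 transport kinesins 2 were higher and 10 lower, with a median of -0.30, and among the 11 other kinesins tested 3 were higher and 6 lower, with a median of -0.37. The medians of the mitotic and transport classes thus lay 1.67 apart on the log2 scale, with no test run on that distance. With KIF2A and KIF24 counted as mitotic, 14 of 15 were higher and KIF2A did not pass. These counts leave out CENPE, which did not pass, and STARD9, which was lower, since their symbols keep them out of the family as defined here. A change of at least 2-fold was seen for 10 mitotic kinesins, all higher, and for 3 transport kinesins, all lower, where 11.2% of all genes were at least 2-fold higher and 11.0% at least 2-fold lower. The low-count filter was passed by 32 members through both groups, by KIF4B and KIF12 through the activated libraries alone, and by KIF17, KIF1A, KIF5A, KIF6 and KIF26B through the dormant libraries alone. The 7 in these last groups had to differ to be tested. Over the 32 that passed through both groups, 16 were higher, 11 were lower and 5 did not pass. They held 12 mitotic kinesins, of which 12 were higher, and 12 transport kinesins, of which 2 were higher and 7 lower. The other class held 8, of which 2 were higher and 4 lower. Among these 32 the change was at least 2-fold for 9 mitotic and 0 transport kinesins, since KIF1A, KIF17 and KIF5A, the 3 transport kinesins that were 2-fold lower, passed through the dormant libraries alone.

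**Figure D1:**
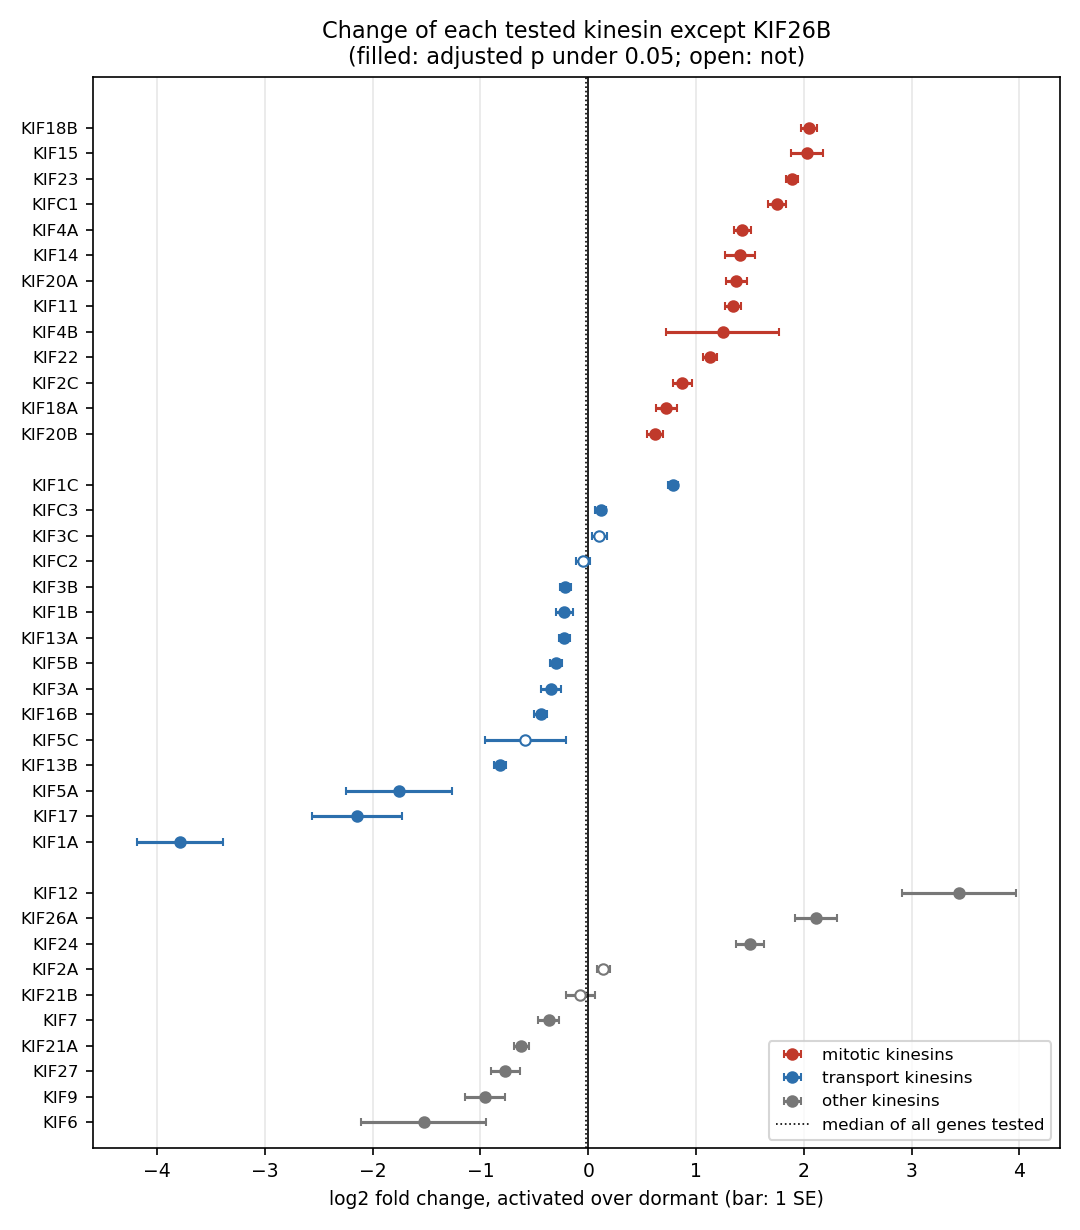
Log2 fold change of activated over dormant cells for the tested kinesins by class, with bars of 1 standard error. Filled points passed an adjusted p of 0.05, open points did not, and the dotted line is the median of all genes tested, -0.02. The mitotic kinesins lie right of 0, between 0.62 and 2.05, and most transport kinesins lie left of it. KIF26B, with no counts in activated libraries, is left out.

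Levels between genes are compared in FPKM, which divides counts by gene length and by the library total. The mitotic kinesins supplied 31.4%, 30.9% and 31.3% of the summed kinesin FPKM in the activated libraries, against 15.1%, 16.3% and 15.3% in the dormant libraries. The transport kinesins supplied 62.1% ± 0.204 in activated and 75.2% ± 0.519 in dormant libraries, and the other kinesins 6.71% ± 0.0457 in activated and 9.28% ± 0.133 in dormant libraries (SD, n = 3 each). In FPKM the mitotic sum was higher in every activated library, while the transport sums of the groups overlapped. These sums lack the TMM factors used for CPM and fold changes, 0.952 to 0.954 in activated and 1.04 to 1.06 in dormant libraries. Such factors would raise the activated sums and lower the dormant sums. The transport sum would then be higher in every activated library than in any dormant library, so the overlap belongs to the FPKM scaling. The percent shares do not depend on it. Mitotic kinesins summed to 117.4 ± 0.945 FPKM in activated and 49.4 ± 1.78 FPKM in dormant libraries, and transport kinesins to 233.3 ± 4.26 FPKM in activated and 239.2 ± 3.43 FPKM in dormant libraries. The whole family summed to 375.9 ± 5.70 FPKM in activated and 318.1 ± 2.82 FPKM in dormant libraries. RNA from whole cultures cannot tell more cells with a transcript from more of that transcript per cell.

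**Figure D2:**
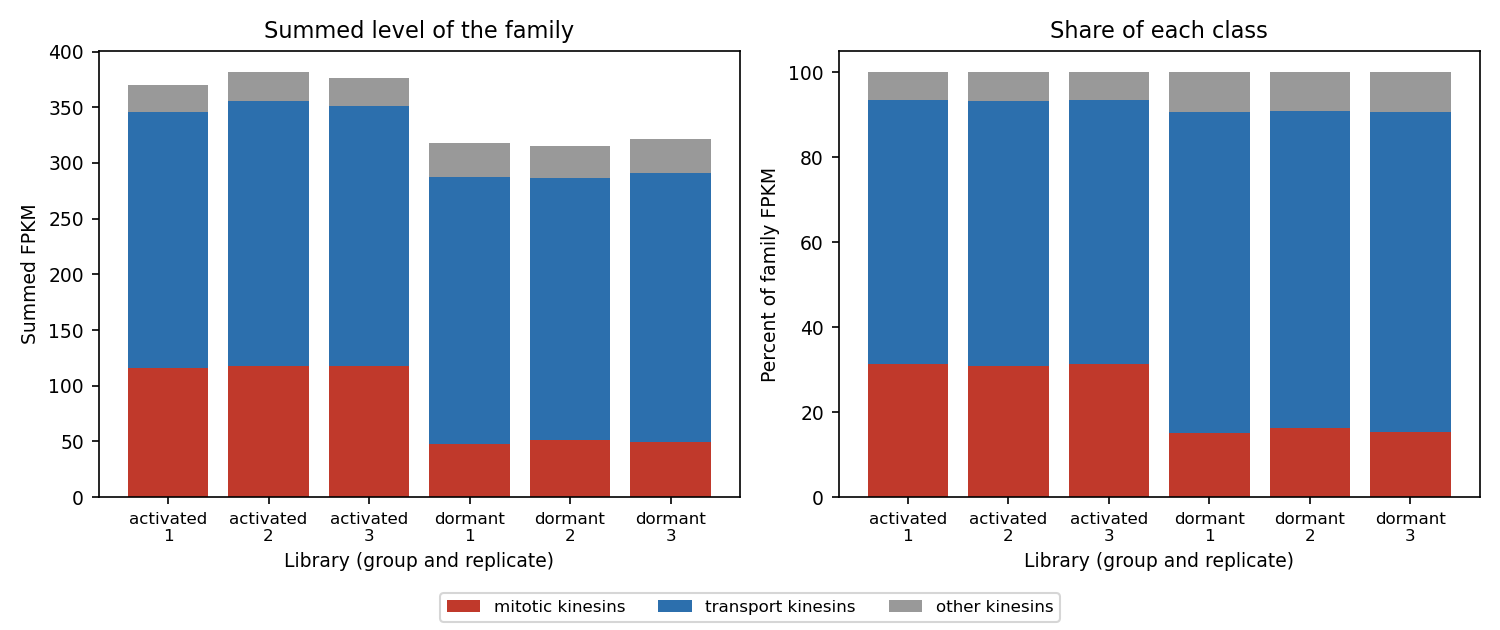
Summed FPKM of the mitotic, transport and other kinesins in each library (left) and the percent of the family's FPKM from each class (right). FPKM is scaled by library totals, without TMM factors. The mitotic part is 116.3 to 118.1 FPKM in the activated libraries and 47.8 to 51.3 FPKM in the dormant libraries, while the transport part is 229.2 to 237.7 FPKM in activated and 235.4 to 242.1 FPKM in dormant libraries.

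In activated cells the order by mean FPKM was led by KIF1C at 70.2, KIFC3 at 52.8, KIF5B at 31.5 and KIF3C at 25.1 FPKM, all transport kinesins, followed by the mitotic KIF23 at 24.1 and KIF22 at 24.1 FPKM. In dormant cells KIFC3 led at 53.6 FPKM, before KIF1C at 44.8, KIF5B at 42.6, KIF3C at 25.7 and KIF3B at 19.1 FPKM. In the activated order KIF3C, KIF23 and KIF22 overlapped between libraries, and in the dormant order no libraries of KIFC3 overlapped those of KIF1C. The order rests on the gene lengths behind the deposited FPKM. For KIF1C that length was 5206 bases, against 7919 exon bases in GENCODE, and for KIFC3 it was 5342 against 4927. The order under other lengths was not tested. KIF23 was number 5 of the family in activated cells and number 13 in dormant cells, and KIF18B number 12 in activated and 24 in dormant cells. KIF13B moved the other way, as number 20 in activated and 12 in dormant cells, and so did KIF21A, as number 17 in activated and 8 in dormant cells.

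**Figure D3:**
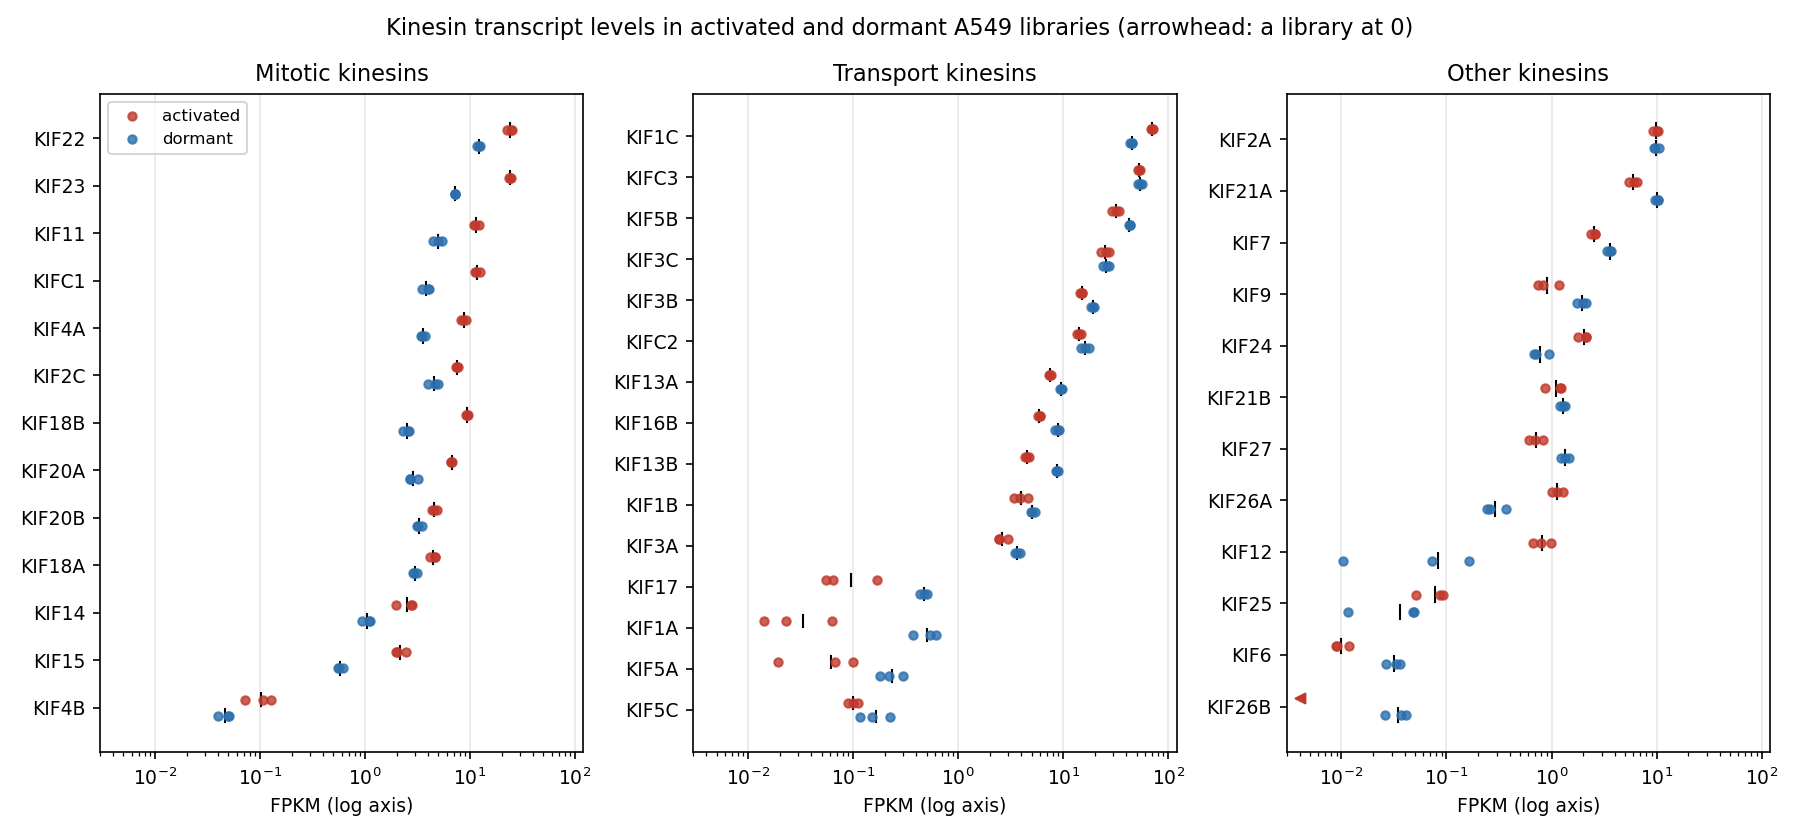
FPKM of each kinesin with counts, on a log axis, in the 3 activated libraries (red, upper row of each gene) and the 3 dormant libraries (blue, lower row), with a black tick at each mean. Each point is a library, and the arrowhead marks KIF26B at 0 in the 3 activated libraries. All detected mitotic kinesins have their activated points right of their dormant points, and KIF1C and KIFC3 head the transport kinesins.

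The 4 mitotic kinesins with the largest rises act on spindle poles, on microtubule ends and in the last step of division. KIF18B, which shortens the astral microtubules that reach from the spindle to the cell edge, had 50.6, 49.3 and 48.8 CPM in activated libraries, against 12.4, 11.0 and 12.5 CPM in dormant libraries. The groups were far apart, a 4.14-fold rise (log2 2.05, SE 0.08, edgeR adjusted p = 4.9e-12). KIF15, which can hold spindle poles apart alongside KIF11, had 10.9, 11.3 and 13.7 CPM in activated libraries, against 3.12, 2.78 and 2.85 CPM in dormant libraries. It was among the lowest mitotic members in both groups, and its rise was 4.09-fold (log2 2.03, SE 0.15, edgeR adjusted p = 1.19e-08). KIF23, the motor of the centralspindlin complex that marks the cleavage site (chr15:69414349-69448427, plus strand, GRCh38), had 94.0, 97.2 and 94.7 CPM in activated libraries, against 25.9, 25.6 and 25.8 CPM in dormant libraries. Its libraries agreed closely within each group, and it rose 3.70-fold (log2 1.89, SE 0.05, edgeR adjusted p = 4.51e-13). KIFC1, a minus-end motor that bundles spindle microtubules and clusters extra centrosomes in tumour cells, had 36.2, 35.4 and 38.8 CPM in activated libraries, against 10.02, 11.4 and 11.3 CPM in dormant libraries. That was a 3.37-fold rise (log2 1.75, SE 0.08, edgeR adjusted p = 8.49e-11).

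KIF11, the plus-end motor that slides antiparallel microtubules to separate the poles and the target of several antimitotic drug candidates (chr10:92593130-92655395, plus strand), had 57.5, 63.9 and 59.2 CPM in activated libraries, against 24.1, 25.4 and 21.4 CPM in dormant libraries. It rose 2.54-fold (log2 1.35, SE 0.07, edgeR adjusted p = 4.3e-10). KIF22, a chromokinesin that pushes chromosome arms away from the poles, stood next to KIF23 in the order of activated cells and had 63.1, 61.7 and 57.1 CPM in activated libraries, against 27.1, 28.03 and 28.01 CPM in dormant libraries. Its rise was smaller at 2.19-fold (log2 1.13, SE 0.06, edgeR adjusted p = 4.3e-10). The chromokinesin KIF4A, which with PRC1 sets the length of the midzone, rose 2.70-fold, to 40.0 ± 2.19 CPM in activated against 14.8 ± 0.618 CPM in dormant cells (SD, n = 3 each, edgeR adjusted p = 2.78e-10). KIF14, which brings citron kinase to the midbody, rose 2.66-fold, and its activated libraries spread from 16.6 to 23.6 CPM while the dormant ones lay between 7.10 and 8.52 CPM. KIF20A, which carries Aurora B kinase to the midzone, rose 2.59-fold, to 21.7 ± 0.285 CPM in activated against 8.36 ± 0.780 CPM in dormant cells (edgeR adjusted p = 9.71e-09). KIF20A shares 68 exon bases with CDC23 on the opposite strand and KIF18A shares 61 with METTL15, and since the sources used here do not give the strand setting of the counting, reads of these stretches cannot be told apart.

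The smallest rises of the class were those of KIF2C, KIF18A and KIF20B. KIF2C, a depolymerase that corrects faulty chromosome attachments, averaged 27.5 ± 0.630 CPM in activated and 15.0 ± 1.48 CPM in dormant cells, a 1.83-fold rise (edgeR adjusted p = 3.82e-07). KIF18A, which damps the swings of aligned chromosomes, averaged 19.6 ± 1.24 CPM in activated and 11.8 ± 0.574 CPM in dormant cells, a 1.65-fold rise (edgeR adjusted p = 6.45e-06). KIF20B, a further cytokinesis motor, averaged 30.9 ± 1.74 CPM in activated and 20.1 ± 0.983 CPM in dormant cells, a 1.54-fold rise (edgeR adjusted p = 3.64e-06; SD, n = 3 each). The log2 intervals of KIF20B (0.47 to 0.77) and of KIF18B (1.90 to 2.20) did not touch, so the size of the rise differed within the class. KIF4B, an intronless copy whose transcript is 95.3% identical to that of KIF4A over 4359 aligned bases, had 20, 17 and 11 counts in activated libraries, against 8, 8 and 6 counts in dormant libraries. Reads of both genes may be split between them in counting, and the call (edgeR adjusted p = 0.0433) was lost in 10 of 15 alternatives, among them leaving out activated replicate 1, activated replicate 2 or any dormant library, with edgeR adjusted p of 0.0914 to 0.16 for these. KIF2B, a depolymerase, had no count in any library, where a count of 0 allows up to 3 counts in a library.

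CENPE is also a kinesin, named for the kinetochore at which it holds chromosomes, and its symbol kept it out of the family as defined here. It had 410, 486 and 443 counts in activated libraries, against 400, 516 and 452 counts in dormant libraries, or 13.2 ± 1.05 CPM in activated and 12.2 ± 1.35 CPM in dormant libraries (SD, n = 3 each). The groups overlapped and the difference did not pass (log2 0.11, interval -0.12 to 0.33, edgeR adjusted p = 0.401). That interval lies below the interval of every mitotic kinesin named above except KIF4B. STARD9, another kinesin outside the naming rule that acts at the centriole, fell 1.71-fold, to 11.8 ± 1.90 CPM in activated against 20.1 ± 2.15 CPM in dormant cells (SD, n = 3 each, edgeR adjusted p = 4.32e-05).

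Many genes that peak late in the cell cycle carry a CHR element (cell cycle genes homology region) near the start of transcription, to which the DREAM complex and, later in the cycle, MYBL2 and FOXM1 bind, often with a CCAAT box bound by NF-Y upstream of it. The promoters of the kinesins were searched on both strands for the CHR element TTTGAA and for the CCAAT box. A CHR variant spelled TTTAAA was searched too, and an E2F site, taken as TTTGGCGC, TTTCCCGC, TTTGCCGC or TTTCGCGC. Windows of 250 bases before to 50 bases after the annotated start came from RefSeq (GRCh38.p14) and were found for 34 of the 42 members, all 14 mitotic, 11 transport and 9 other kinesins. The 90 bases before the start are shown for 6 mitotic kinesins and, for contrast, for 2 of the most abundant transport kinesins, 5′ to 3′ on the strand of the gene, with CHR and CCAAT matches in capitals. TTCAAA and ATTGG are the same motifs read on the other strand.
KIF23 (chr15:69414259-69414348, plus strand): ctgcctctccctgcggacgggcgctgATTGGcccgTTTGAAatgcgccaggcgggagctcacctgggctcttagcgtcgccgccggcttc
KIF4A (chrX:70290014-70290103, plus strand): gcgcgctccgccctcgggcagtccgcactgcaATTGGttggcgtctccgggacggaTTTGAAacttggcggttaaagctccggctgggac
KIF11 (chr10:92593040-92593129, plus strand): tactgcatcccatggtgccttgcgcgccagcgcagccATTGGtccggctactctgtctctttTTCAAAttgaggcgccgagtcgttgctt
KIF18A (chr11:28108157-28108246, minus strand): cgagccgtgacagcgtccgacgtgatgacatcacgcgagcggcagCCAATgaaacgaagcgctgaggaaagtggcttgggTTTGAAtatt
KIF15 (chr3:44761704-44761793, plus strand): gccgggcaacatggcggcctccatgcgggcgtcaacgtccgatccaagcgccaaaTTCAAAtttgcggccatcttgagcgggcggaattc
KIF22 (chr16:29790661-29790750, plus strand): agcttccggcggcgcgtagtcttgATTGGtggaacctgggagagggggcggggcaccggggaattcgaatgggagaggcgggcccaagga
KIF1C (chr17:4997860-4997949, plus strand): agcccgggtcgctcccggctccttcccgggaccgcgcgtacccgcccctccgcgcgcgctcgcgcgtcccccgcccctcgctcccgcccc
KIF5B (chr10:32056426-32056515, minus strand): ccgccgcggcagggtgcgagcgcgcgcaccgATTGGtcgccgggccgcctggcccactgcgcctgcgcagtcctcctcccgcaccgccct

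In these windows KIF23, KIF4A, KIF11 and KIF18A show a CCAAT box followed by a CHR match nearer to the start, KIF15 a CHR match alone, KIF22 and KIF5B a CCAAT box alone, and KIF1C neither. Over the full windows TTTGAA was present in 10 of 14 mitotic, 1 of 11 transport and 0 of 9 other kinesins, against 15.4% of the 27305 promoters in the table and 9.65% of those of genes tested. Among genes tested, TTTGAA stood in 10.4% of the promoters of genes higher in activated cells and in 9.19% of those of genes not higher. CCAAT was present in 11 of 14 mitotic, 3 of 11 transport and 3 of 9 other kinesins, against 35.7% of all promoters. Both stood together in 9 of 14 mitotic and 1 of 11 transport promoters, against 6.08% of all promoters. The transport match was KIF5B, with TTTGAA 140 bases before the start. In KIFC1, KIF18B, KIF14 and KIF4B the CHR match began 2 to 5 bases after the start, and in KIF20B it lay 25 and 31 bases after it. KIF22, KIF2C, KIF20A and KIF2B had no TTTGAA in the window, although KIF22, KIF2C and KIF20A rose too, and KIF2C and KIF20A held TTTAAA, a motif of 4 of 14 mitotic promoters and 12.3% of all promoters. The E2F site was found in 1 of 14 mitotic promoters, that of KIF15 at 43 bases before the start, next to and outside its CHR match, and in 3.33% of all promoters. These are matches of letters and not binding sites, and no binding was measured.

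**Figure D4:**
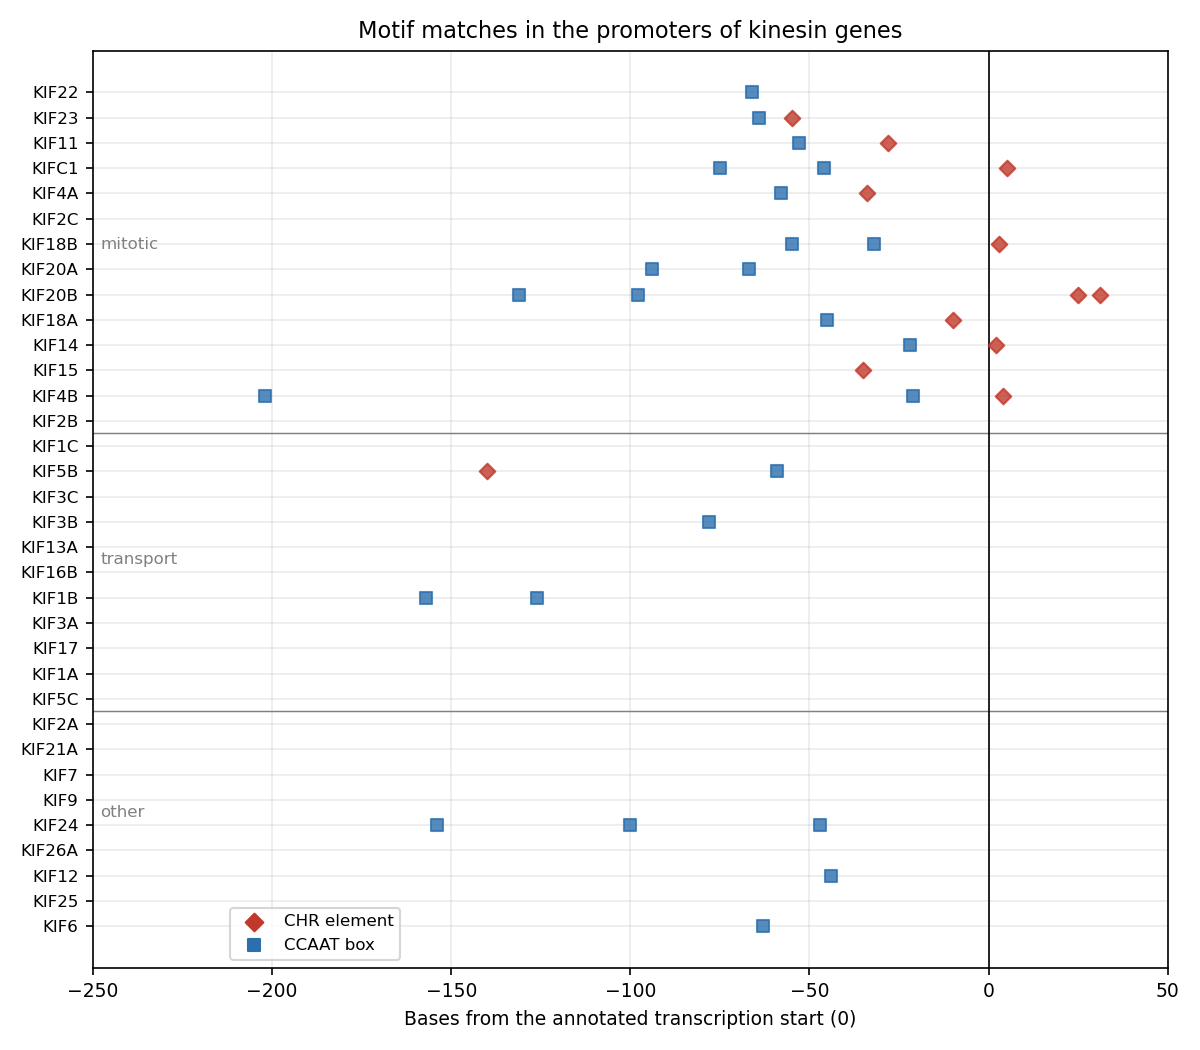
Position of each CHR (red diamond) and CCAAT (blue square) match relative to the annotated transcription start, in bases, for the 34 kinesins with a promoter window, grouped by class. In the mitotic class the CHR matches lie within 55 bases of the start and nearly always downstream of a CCAAT box. The transport class has a CHR match in KIF5B alone, 140 bases before the start.

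Of 19 regulators of mitotic genes, some of which act on such elements, 10 rose and 5 fell, against 36.5% and 37.2% of all genes tested, with a median log2 fold change of 0.29. E2F8, an E2F repressor that is itself made in S phase, rose 16.6-fold, to 9.63 ± 0.537 CPM in activated against 0.575 ± 0.207 CPM in dormant cells (edgeR adjusted p = 7.07e-10). E2F1, an activator of genes for S phase, rose 15.9-fold, to 81.6 ± 2.29 CPM in activated against 5.10 ± 0.788 CPM in dormant cells (edgeR adjusted p = 4.08e-14). LIN37, a constant subunit of the DREAM complex, fell 1.65-fold, to 17.6 ± 1.07 CPM in activated against 29.1 ± 1.29 CPM in dormant cells (SD, n = 3 each, edgeR adjusted p = 9.22e-07). Of the other factors that bind near the CHR, MYBL2 had a log2 fold change of 3.26 and FOXM1 of 1.27, both named here after their values were seen. On the same list, and named likewise, LIN52 was lower (log2 -0.32) and RBBP4 higher (log2 0.39). LIN54 (log2 -0.11) and LIN9 (log2 0.29), also named likewise, did not pass. The 5 markers of cycling cells were all higher, against 36.5% of all genes tested, and their summed level was 1165 to 1220 CPM in activated against 354.9 to 371.5 CPM in dormant libraries. MKI67, present in cycling cells, had 272, 347 and 330 CPM in activated libraries, against 71.3, 74.7 and 70.4 CPM in dormant libraries, a 4.39-fold rise (edgeR adjusted p = 4.23e-12). Its log2 interval, 1.98 to 2.29, overlapped those of KIF18B (1.90 to 2.20), KIF15, KIF23 and KIF4B. The intervals of KIF22, KIF11, KIFC1, KIF4A, KIF2C, KIF20A, KIF20B, KIF18A and KIF14 lay wholly below that of MKI67. The median log2 fold change of the mitotic kinesins was 1.37, against 2.13 for MKI67. CCNA2, the cyclin of S phase and early mitosis, rose 3.995-fold. How much of the rise of the mitotic kinesins goes with the number of cycling cells was not tested.

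Transcripts of proteins that work with mitotic kinesins at the spindle were higher for 18 of 20 genes, against 36.5% of all genes tested, while 1 was lower and 1 did not pass, with a median log2 fold change of 1.14. AURKB, the kinase that KIF20A carries to the midzone, rose 5.12-fold, to 58.8 ± 5.12 CPM in activated against 11.5 ± 0.581 CPM in dormant cells (edgeR adjusted p = 2.39e-12). BIRC5, or survivin, which anchors that kinase in its complex, rose 3.84-fold, to 86.9 ± 2.34 CPM in activated against 22.6 ± 0.735 CPM in dormant cells (edgeR adjusted p = 6.51e-13). CKAP5, a polymerase of microtubules that also works in interphase, fell 1.245-fold, to 224 ± 5.98 CPM in activated against 279 ± 7.12 CPM in dormant cells (SD, n = 3 each, edgeR adjusted p = 2.53e-05). For 2 direct partners, named after their values were seen, the sizes can be set beside those of their motors. RACGAP1, the partner of KIF23 in centralspindlin, had a log2 fold change of 0.97 against 1.89 for KIF23, and PRC1, the partner of KIF4A, had 1.65 against 1.43 for KIF4A.

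Among the transport kinesins the most abundant moved in opposite directions. KIF1C, which carries integrin-containing and dense core vesicles (chr17:4997950-5028401, plus strand), had 376, 395 and 380 CPM in activated libraries, against 228, 213 and 225 CPM in dormant libraries. It rose 1.73-fold (log2 0.79, SE 0.05, edgeR adjusted p = 1.5e-09) and, beside KIFC3, was the transport kinesin that rose. KIF5B, the heavy chain of conventional kinesin used in most tissues (chr10:32009015-32056425, minus strand), had 187, 214 and 200 CPM in activated libraries, against 250, 247 and 242 CPM in dormant libraries. It fell 1.23-fold (log2 -0.30, SE 0.05, edgeR adjusted p = 0.000174). KIFC3, a minus-end motor that works in apical transport and at cell junctions, had 289, 303 and 296 CPM in activated libraries, against 274, 262 and 284 CPM in dormant libraries. Its small rise (log2 0.12, edgeR adjusted p = 0.0449) turned to -0.02 when libraries were scaled by total counts, and in FPKM its groups overlapped, at 52.8 ± 1.29 in activated and 53.6 ± 1.87 in dormant libraries (SD, n = 3 each). That scaling moved the median of all genes by -0.14. The call was also lost without activated replicate 2 (edgeR adjusted p = 0.0943), without activated replicate 3 (edgeR adjusted p = 0.104), without dormant replicate 1 (edgeR adjusted p = 0.0788) and without dormant replicate 2 (edgeR adjusted p = 0.158).

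KIF1A, KIF17 and KIF5A, which are best known from neurons, had low counts in every library and the largest falls of the class. KIF1A, the carrier of synaptic vesicle precursors, had 8, 5 and 21 counts in activated libraries, against 213, 131 and 178 counts in dormant libraries. It was 13.8-fold lower in activated cells (log2 -3.79, SE 0.40, edgeR adjusted p = 6.48e-07), and 24.3-fold lower without activated replicate 3, which held most of the activated counts. KIF17, which carries receptors in dendrites and works in cilia, had 8, 25 and 9 counts in activated libraries, against 64, 75 and 66 counts in dormant libraries. It was 4.42-fold lower (log2 -2.14, SE 0.42, edgeR adjusted p = 0.000318), and 7.11-fold lower without activated replicate 2, the highest of the activated libraries. KIF5A, the neuronal heavy chain of conventional kinesin, had 4, 14 and 20 counts in activated libraries, against 37, 46 and 59 counts in dormant libraries, a 3.37-fold fall (log2 -1.75, SE 0.49, edgeR adjusted p = 0.00492). KIF5C, the third heavy chain, had 24, 27 and 29 counts in activated libraries, against 61, 32 and 39 counts in dormant libraries, and did not pass (log2 -0.58, interval -1.32 to 0.15, edgeR adjusted p = 0.174). None of these 4 exceeded a mean of 0.508 FPKM in either group, where KIF5B stood at 31.5 FPKM in activated and 42.6 FPKM in dormant cells.

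The endosomal and vesicle motors fell by less. KIF13B, which moves vesicles that carry phosphoinositide signals, fell the most of the well-measured transport kinesins, with 42.4, 44.4 and 40.8 CPM in activated libraries, against 74.0, 75.4 and 75.1 CPM in dormant libraries. The groups were far apart, a 1.76-fold fall (log2 -0.81, SE 0.06, edgeR adjusted p = 5.13e-09). KIF16B, which places early endosomes, fell 1.36-fold, to 48.6 ± 1.55 CPM in activated against 66.0 ± 3.32 CPM in dormant cells (edgeR adjusted p = 7.97e-06). KIF13A, a motor of recycling endosomes and of mannose 6-phosphate receptor vesicles, had a log2 fold change of -0.22, at 71.4 ± 1.77 CPM in activated and 83.2 ± 2.58 CPM in dormant cells. KIF1B, a carrier of mitochondria and vesicle precursors, also had -0.22, but its groups overlapped, with 60.0, 80.0 and 67.9 CPM in activated libraries, against 78.9, 83.6 and 79.8 CPM in dormant libraries. Its call (edgeR adjusted p = 0.0245) was lost without activated replicate 1 (edgeR adjusted p = 0.102), without activated replicate 3 (edgeR adjusted p = 0.087), without dormant replicate 2 (edgeR adjusted p = 0.085) and without dormant replicate 3 (edgeR adjusted p = 0.0523). It was also lost with a correction for gene length (edgeR adjusted p = 0.316), which ended the call of KIF13A (edgeR adjusted p = 0.0823).

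Heterotrimeric kinesin-2, made of KIF3A with KIF3B or KIF3C and the adaptor KIFAP3, carries ciliary and Golgi cargo. KIF3A had 18.4, 22.4 and 18.7 CPM in activated libraries, against 24.1, 26.6 and 25.1 CPM in dormant libraries, a 1.27-fold fall (edgeR adjusted p = 0.003). KIF3B fell 1.16-fold, to 96.0 ± 2.53 CPM in activated against 111 ± 3.79 CPM in dormant cells (SD, n = 3 each, edgeR adjusted p = 0.00151). KIF3C did not pass (log2 0.10, interval -0.03 to 0.24, edgeR adjusted p = 0.187). It passed only without activated replicate 2 (log2 0.17, edgeR adjusted p = 0.022) and with the length correction (edgeR adjusted p = 0.0375). KIFAP3, named after its values were seen, did not pass either (log2 -0.02, edgeR adjusted p = 0.766). KIFC2, a minus-end motor known from neurons, did not pass (log2 -0.05, interval -0.17 to 0.08, edgeR adjusted p = 0.518), and 791 of its exon bases are shared with FOXH1 on the opposite strand. It was lower with total counts (log2 -0.19, edgeR adjusted p = 0.0181) and in the 3 fits of FPKM values (limma adjusted p of 0.0255 to 0.0486). These fits do not use the TMM factors, and scaling by total counts moved the median of all genes by -0.14. The FPKM of KIFC2 did not overlap between groups, at 13.64 to 14.64 in activated against 14.86 to 17.45 in dormant libraries. Its CPM, scaled with TMM factors, overlapped, at 55.86 to 60.02 in activated and 55.79 to 64.27 in dormant libraries.

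Within subfamilies, ratios of library FPKM cancel the scaling of a library and show which paralog gained. Of 10 such pairs 7 did not overlap between groups. As single genes, 76.5% of all genes tested did not overlap in CPM, and the share for ratios of gene pairs was not computed. Since 3 against 3 libraries cannot give a 2-sided exact permutation p below 0.1 (0.143 after Benjamini-Hochberg adjustment over the 10), none of the pairs can pass 0.05. The ratio of KIF18A to KIF18B was 0.476 ± 0.0303 in activated and 1.20 ± 0.0740 in dormant libraries, so KIF18B was the more abundant of the pair in activated cells and KIF18A in dormant cells. KIF20A to KIF20B likewise changed order, with 1.47 ± 0.0824 in activated and 0.866 ± 0.0388 in dormant libraries. KIF13A to KIF13B was 1.66 ± 0.101 in activated and 1.10 ± 0.0448 in dormant libraries. KIF1B to KIF1C was 0.0564 ± 0.00674 in activated and 0.114 ± 0.00774 in dormant libraries (SD, n = 3 each). The remaining pairs without overlap were KIF2A to KIF2C, KIF3B to KIF3C and KIF21A to KIF21B, while KIF3A to KIF3B, KIF3A to KIF3C and KIF5B to KIF5C overlapped.

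Transcripts of proteins that tie transport kinesins to cargo fell for 16 of 22 genes and rose for 3, against 37.2% lower and 36.5% higher among all genes tested, and 3 did not pass, with a median log2 fold change of -0.39. KLC3, a kinesin light chain, had 0, 1 and 4 counts in activated libraries, against 28, 18 and 19 counts in dormant libraries, an 11.1-fold fall (edgeR adjusted p = 0.000766), or 32.5-fold without activated replicate 3, and it passed the low-count filter through the dormant libraries alone. HAP1, the huntingtin-associated adaptor, fell 4.01-fold, to 1.47 ± 0.507 CPM in activated against 5.91 ± 0.834 CPM in dormant cells (edgeR adjusted p = 2.98e-06). RHOT2, a mitochondrial receptor for kinesin, rose 1.65-fold, to 95.02 ± 3.38 CPM in activated against 57.6 ± 4.54 CPM in dormant cells (SD, n = 3 each, edgeR adjusted p = 7.48e-08). The light chains KLC1, KLC2 and KLC4, named after their values were seen, had log2 fold changes of -0.15, -0.37 and -0.25. Their heavy chain KIF5B had -0.30.

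Cytoplasmic dynein, the motor that runs opposite to most kinesins, was measured for 26 subunits and cofactors, of which 12 rose, 9 fell and 5 did not pass, against 36.5% higher and 37.2% lower among all genes tested, with a median log2 fold change of -0.06. Scaling by total counts turned this split to 11 higher and 13 lower. The dynactin subunit DCTN1 rose 1.79-fold, to 212 ± 3.47 CPM in activated against 118 ± 3.79 CPM in dormant cells (edgeR adjusted p = 6.65e-10). BICD2, a cargo adaptor that also works at the nucleus before mitosis, rose 1.79-fold, to 120 ± 4.41 CPM in activated against 67.0 ± 1.95 CPM in dormant cells (edgeR adjusted p = 1.78e-09). The light chain DYNLT3 fell 2.85-fold, to 14.2 ± 0.695 CPM in activated against 40.4 ± 3.91 CPM in dormant cells (SD, n = 3 each, edgeR adjusted p = 6.67e-10).

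**Figure D5:**
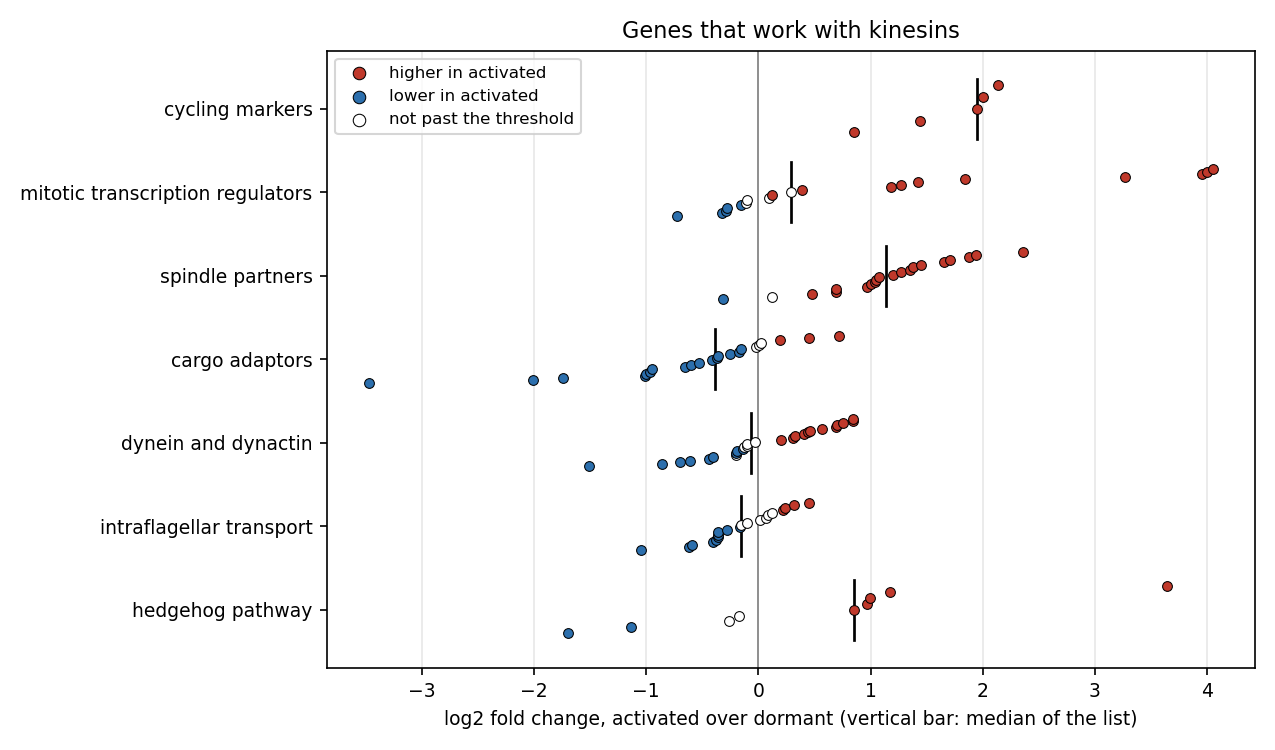
Log2 fold change of activated over dormant cells for genes that work with kinesins, each point a gene and each bar the median of its list. Spindle partners centre at 1.14, cargo adaptors at -0.39 and dynein and dynactin at -0.06. Cycling markers lie wholly right of 0.

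The kinesins outside these classes held the largest rise of the family, that of KIF12, and the largest fall, that of KIF26B, both at low counts. KIF12, whose gene is mutated in an inherited cholestatic liver disease, had 95, 64 and 73 counts in activated libraries, against 7, 1 and 15 counts in dormant libraries. It was 10.9-fold higher (log2 3.44, SE 0.53, edgeR adjusted p = 3.19e-05), and 21.1-fold higher without dormant replicate 3, the highest of the dormant libraries. KIF26A, an atypical kinesin without ATP-driven movement, had 7.36, 8.10 and 9.23 CPM in activated libraries, against 1.71, 1.59 and 2.40 CPM in dormant libraries, a 4.33-fold rise (log2 2.11, SE 0.20, edgeR adjusted p = 1.54e-07). Its paralog KIF26B, which acts in kidney development in mice, went the opposite way, with no count in any activated library against 20, 13 and 17 counts in dormant libraries. With 3 counts as the limit that 0 allows over the activated group, KIF26B was at least 15.1-fold lower (edgeR adjusted p = 0.0002). KIF24, a centriolar depolymerase that holds back cilium formation, had 17.6, 20.5 and 20.8 CPM in activated libraries, against 6.12, 8.31 and 6.32 CPM in dormant libraries, a 2.83-fold rise (log2 1.503, SE 0.13, edgeR adjusted p = 6.71e-08). It shares 143 exon bases with UBAP1 on the opposite strand.

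KIF2A, a microtubule depolymerase of neurons and spindle poles, had 86.1, 88.7 and 78.5 CPM in activated libraries, against 81.6, 74.6 and 73.8 CPM in dormant libraries. The groups overlapped and it did not pass (log2 0.14, interval 0.02 to 0.26, edgeR adjusted p = 0.0534), although 8 of 18 alternatives put it past the threshold, among them leaving out activated replicate 3 (edgeR adjusted p = 0.0214) or dormant replicate 1 (edgeR adjusted p = 0.0226). KIF21A, which stops microtubule growth at the cell cortex, had 36.6, 40.4 and 43.6 CPM in activated libraries, against 63.9, 58.8 and 62.8 CPM in dormant libraries, a 1.54-fold fall (log2 -0.62, SE 0.07, edgeR adjusted p = 1.12e-06). Its paralog KIF21B did not pass (log2 -0.07, interval -0.33 to 0.19, edgeR adjusted p = 0.629). KIF25 had too few counts to be tested, with 17, 16 and 9 in activated libraries, against 9, 9 and 2 in dormant libraries.

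The other class also holds kinesins of cilia. KIF7, which sits at the tip of the primary cilium and regulates hedgehog signalling, fell 1.29-fold, to 12.5 ± 0.684 CPM in activated against 16.1 ± 0.712 CPM in dormant cells (edgeR adjusted p = 0.0033). KIF9, a motor of motile cilia in mice, had 5.03, 3.52 and 3.20 CPM in activated libraries, against 7.83, 6.69 and 8.36 CPM in dormant libraries, a 1.95-fold fall (edgeR adjusted p = 0.00029). KIF27, a relative of KIF7 that acts in motile cilia in mice, fell 1.71-fold, to 7.49 ± 1.18 CPM in activated against 12.8 ± 1.14 CPM in dormant cells (SD, n = 3 each, edgeR adjusted p = 0.000113), and pseudogenes match 1203 and 1560 bases of its transcript at 96.8% and 97.6% identity. KIF6, which works in the cilia of the ventricle lining in mice, had 4, 4 and 5 counts in activated libraries, against 16, 12 and 14 counts in dormant libraries, and passed the low-count filter through the dormant libraries alone. Its call (edgeR adjusted p = 0.0285) was lost in 9 of 15 alternatives, among them leaving out any activated library or dormant replicate 1 or 3, with edgeR adjusted p of 0.053 to 0.0964 for these. KIF19, which trims motile cilia in mice, had no count in any library. Exons of KIF9 share 149 bases with KLHL18 and those of KIF7 share 47 with TICRR, both on the opposite strand. The 10 markers of motile cilia summed to 8.24 to 9.997 CPM in activated against 8.92 to 10.1 CPM in dormant libraries, with TEKT1 at 0. The 4 with enough counts to be tested had edgeR adjusted p from 0.0832 (TPPP3) to 0.835 (CFAP43).

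Intraflagellar transport, the ciliary cargo system pulled by kinesin-2, had 20 genes tested, of which 10 fell, 4 rose and 6 did not pass, against 37.2% lower and 36.5% higher among all genes tested, with a median log2 fold change of -0.16. Scaled by total counts, 12 fell and 1 rose. WDR19, a subunit of the retrograde complex, fell 2.06-fold, to 17.4 ± 1.296 CPM in activated against 35.7 ± 0.892 CPM in dormant cells (edgeR adjusted p = 1.15e-08). IFT27 fell 1.53-fold, to 12.7 ± 0.742 CPM in activated against 19.5 ± 1.16 CPM in dormant cells (edgeR adjusted p = 3e-05). IFT81, which binds tubulin, rose 1.37-fold, to 31.1 ± 2.63 CPM in activated against 22.8 ± 0.609 CPM in dormant cells (SD, n = 3 each, edgeR adjusted p = 0.000104).

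The hedgehog pathway, which KIF7 regulates, had 5 of 9 genes higher, 2 lower and 2 not past the threshold, against 36.5% higher and 37.2% lower among all genes tested. HHIP, an antagonist and transcriptional target of the pathway, rose 12.5-fold, to 14.6 ± 2.56 CPM in activated against 1.17 ± 0.282 CPM in dormant cells (edgeR adjusted p = 4.13e-10). SMO, its signal transducer, rose 2.26-fold, to 53.5 ± 0.678 CPM in activated against 23.7 ± 1.46 CPM in dormant cells (edgeR adjusted p = 5.38e-10). GLI3, the factor that mainly represses its targets, had 4, 7 and 10 counts in activated libraries, against 25, 26 and 25 counts in dormant libraries, a 3.24-fold fall (edgeR adjusted p = 0.0067), and passed the low-count filter through the dormant libraries alone.

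Since osteoclast-conditioned medium was used, markers of osteoclasts and myeloid cells were read in the same libraries. The 11 osteoclast markers summed to 252.5 to 335.1 CPM in activated against 58.4 to 61.4 CPM in dormant libraries. Nearly all of the activated sum was the integrin ITGB3, at 265 ± 41.4 CPM in activated and 5.88 ± 0.609 CPM in dormant libraries. ATP6V0D2, an osteoclast subunit of the proton pump, had 1, 0 and 6 counts in activated libraries, against 797, 707 and 660 counts in dormant libraries (log2 -8.06). CALCR, OCSTAMP and DCSTAMP were at 0 in every library. Of the 8 osteoclast markers tested 2 were higher and 4 lower, against 36.5% and 37.2% of all genes tested. ACP5, ATP6V0D2 and OSCAR passed the low-count filter through the dormant libraries alone and MMP9 through the activated libraries alone. The 11 myeloid markers summed to 177.4 to 186.4 CPM in activated against 143.0 to 158.1 CPM in dormant libraries, mostly from CD68 at 152 ± 3.82 CPM in activated and 135 ± 5.75 CPM in dormant libraries (SD, n = 3 each). All 6 myeloid markers tested were higher, against 36.5% of all genes tested, and CSF1R and LAPTM5 passed the filter through the activated libraries alone. TYROBP, AIF1, C1QA and C1QB were at 0 in every library. The part of these markers in the kinesin values was not tested.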

How the data were processed

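RNA from 6 A549 libraries, 3 activated and 3 dormant, was made into sequencing libraries from TRIzol extracts with a VAHTS Universal V6 kit, per the labels' protocols. The deposited count table holds whole-number read counts per gene symbol, and the authors' FPKM table gives these counts scaled by gene length and by the library's table total, as a check of the values showed. The submitters' processing notes name HISAT2, HTSeq, fastp and GRCh38. Versions, the annotation and the strand setting were not found in the sources used here.

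The family, its classes and the partner lists were chosen with earlier results of these data known. Counts were tested across all genes with edgeR 4.0.16 (R 4.3.3; quasi-likelihood test, TMM factors, default low-count filter by group, Benjamini-Hochberg adjustment, threshold 0.05), with no test on a list. The procedure was tested on simulated data. CPM values are TMM-normalised, standard errors are the size of the log2 fold change over the root of F, and intervals are ± 1.96 SE. FPKM served for levels between genes. Ratios of paralogs had an exact permutation test (scipy 1.17.1). A limit of 3 counts stands behind a count of 0 and covers counting error only. Positions and promoters are RefSeq GRCh38.p14, 1-based. Exon overlaps and near-identical transcripts (BLAST 2.17.0) are from GENCODE. Every kinesin is accounted for by name, with full statistics for the 4 largest rises, the 4 largest falls and the 3 most abundant of each class, and for the largest changes of each partner list; genes named outside this rule are marked. Replicate numbers are not stated to pair libraries. Alternatives were other normalizations, DESeq2 1.42.0, limma 3.58.1 voom, other filters, limma on log2 FPKM with pseudocounts of 1 or 0.1, a gene length correction, a replicate block, a fold minimum of 2, each library left out in turn, and other class assignments.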

Additional observations from a re-analysis of the deposited data

How the results depend on the processing

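Over the alternatives, 1072 log2 fold changes of 61 kinesins and partner genes were recomputed. Of these, 1023 kept their side of the threshold with no change of sign in a called gene, and 14 gained the call. A further 31 lost the call with the sign kept, and 4 lost it with a change of sign. Those 4 changes were of KIFC3, at -0.0244 with total counts, -0.0237 with log2(FPKM + 1) with or without a filter and -0.0241 with log2(FPKM + 0.1); the cause was not tested. KIF21B, CENPE, KIF3C, KIFC2 and KIF2A, which were not called, crossed 0 in some alternatives. Calls were lost for KIF4B, KIF6, KIFC3, KIF1B and KIF13A and gained for KIF2A, KIFC2 and KIF3C. Counts of 50 or fewer a group limit KIF4B, KIF6 and KIF26B, and a pseudocount of 1 FPKM shrinks every low kinesin by construction.

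With a fold minimum of 2, 2959 genes (1493 higher, 1466 lower) and 18 kinesins passed, 5 of them lower, with 3 transport kinesins (0 higher, 3 lower) and 5 other kinesins (2 lower), since the rule asks for more. Higher transport kinesins numbered 1 in place of 2 with total counts, upper-quartile factors, a filter of 1 CPM and each FPKM fit, and 1 to 2 when a library was left out. The medians of mitotic and transport kinesins lay 1.3192, 1.5587 and 1.3134 apart in log2(FPKM + 1), log2(FPKM + 0.1) and unfiltered log2(FPKM + 1), and 1.6293 to 1.7271 apart without a library. By counts in place of FPKM, mitotic kinesins made up 22.71% of the family in activated and 10.29% in dormant cells, transport kinesins 68.19% in activated and 78.52% in dormant cells, and other kinesins 9.1% in activated and 11.19% in dormant cells, because long genes take more counts. With total counts 1 intraflagellar transport gene rose and 4 hedgehog genes fell, and with the length correction 3 mitotic regulators fell.

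In a fit with the replicate block, 9789 genes passed, 4847 higher and 4942 lower, and 33 kinesins, with KIF4B and KIF6 lost and KIF2A gained. The numbers are not stated to pair libraries: same-numbered libraries had correlations of deviations of 0.00229, 0.0177 and 0.00333, and not every library correlated best with its own number.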
